A study of Caenorhabditis elegans with 4 samples.

Results

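Chromosome IV of the nematode Caenorhabditis elegans held 1563 of the 9165 PHA-4 binding regions, called peaks, that were mapped in late embryos. The members were all peaks that the deposited list places on that chromosome, which made 17.1% of the list. PHA-4 is the worm's FoxA protein, a forkhead-type transcription factor that binds DNA and sets the identity of the pharynx, the feeding organ, and it also acts in other digestive tract cells. FoxA proteins are called pioneer factors because they can bind DNA in closed chromatin. Autosomes of this worm have gene-rich centres with little recombination, flanked by arms with more repeats. Chromosome IV also carries most of the worm's piRNA genes, which give small RNAs that silence foreign sequences in the germ line. They lie in broad clusters, and their positions were not compared with the peaks here.

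The peaks came from chromatin immunoprecipitation and sequencing (ChIP-seq), in which DNA crosslinked to a protein is pulled down with an antibody and sequenced. All embryos were of the strain OP37, grown at 20 °C. Hermaphrodites of this strain carry the unc-119(ed3) mutation on chromosome III and the integrated transgene wgIs37. The transgene supplies unc-119(+), which marks transformed animals, and pha-4::TY1::EGFP::3xFLAG, a copy of pha-4 joined to the sequence of an enhanced green fluorescent protein (GFP) and to short tags. It was brought in by particle bombardment and, per the labels, is made where and when pha-4 normally is. The labels name no mutation of the worm's own pha-4 gene. A goat antibody against GFP gave 2 ChIP libraries, and 2 input libraries of chromatin without pull-down were the controls, 1 of each per replicate. Whole embryos were used, so the list adds up binding in every cell type that makes PHA-4.

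The deposited list is 1 list for both replicates together. It gives the start and end of each peak in the WormBase WS180 build and the q-value of the authors' peak caller, in which a smaller value is a better score. It holds no tag counts, so the depth behind a peak is unknown and no value has a replicate error. No test between chromosomes was made. The intervals below are 95% intervals that treat peaks as independent and cover counting error alone. Peaks on chromosome IV were not independent, since their number per 100 kb had a variance 2.61 times its mean, and the intervals are thus too narrow. The genes and the sequences at these positions were not analysed here, as no WS180 genome was at hand.

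Chromosome IV was less dense in peaks than I, II and III and denser than V. Its peaks spanned 17.4 Mb, from 51119 to 17491019, at 89.6 peaks per Mb (85.2 to 94.2). Chromosome III had 116 peaks per Mb, II had 102 and I had 99.9, and V had 59.1. The density on IV was thus 0.771 times that of III (0.719 to 0.827), 0.876 times that of II (0.816 to 0.940) and 0.897 times that of I (0.835 to 0.963). It was 1.52 times that of V (1.41 to 1.63). Against the 4 other autosomes together the ratio was 0.987 (0.933 to 1.04), and without V it was 0.847 (0.799 to 0.897). The pooled value near 1 therefore came from averaging denser chromosomes with a sparse one. Peaks covered 573 kb or 3.29% of the span of IV, beside 2.43% on V and 3.53 to 3.92% on I, II and III.

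The density was uneven along chromosome IV. With the span cut into equal parts of 33.3%, the left arm held 541 peaks or 93.1 per Mb (85.4 to 101). The centre, from 5864420 to 11677719, held 610 or 105 per Mb (96.8 to 114). The right arm held 412 or 70.9 per Mb (64.2 to 78.1). Left arm and centre had overlapping intervals, and the right arm lay below both. The right arm was itself uneven. Its windows of 1 Mb from 12000001 and 13000001 held 103 and 89 peaks, and from 14000000 on it had 51.0 peaks per Mb. The low density of the right arm and that of the part from 14000000, described below, are thus not separate results.

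Against the same parts of the other autosomes, the left arm of IV was among the dense ones, and its centre and right arm were among the sparse ones. The left arms of III and I had 99.7 and 90.4 peaks per Mb, and those of II and V had 70.7 and 53.9. In the centres, I, II and III had 123 to 138 peaks per Mb and V had 82.0, with IV between them. The right arms of I, II and III had 86.4 to 111 peaks per Mb, and V had 41.5. The centre of IV held 39.0% of its peaks (36.6 to 41.5), the lowest such share of the 5 autosomes and close to the 39.5% of III. The right arm held 0.762 times as many peaks as the left arm (0.668 to 0.867). This ratio was 0.771 on V, 0.956 on I, 1.12 on III and 1.44 on II.

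**Figure D1:**
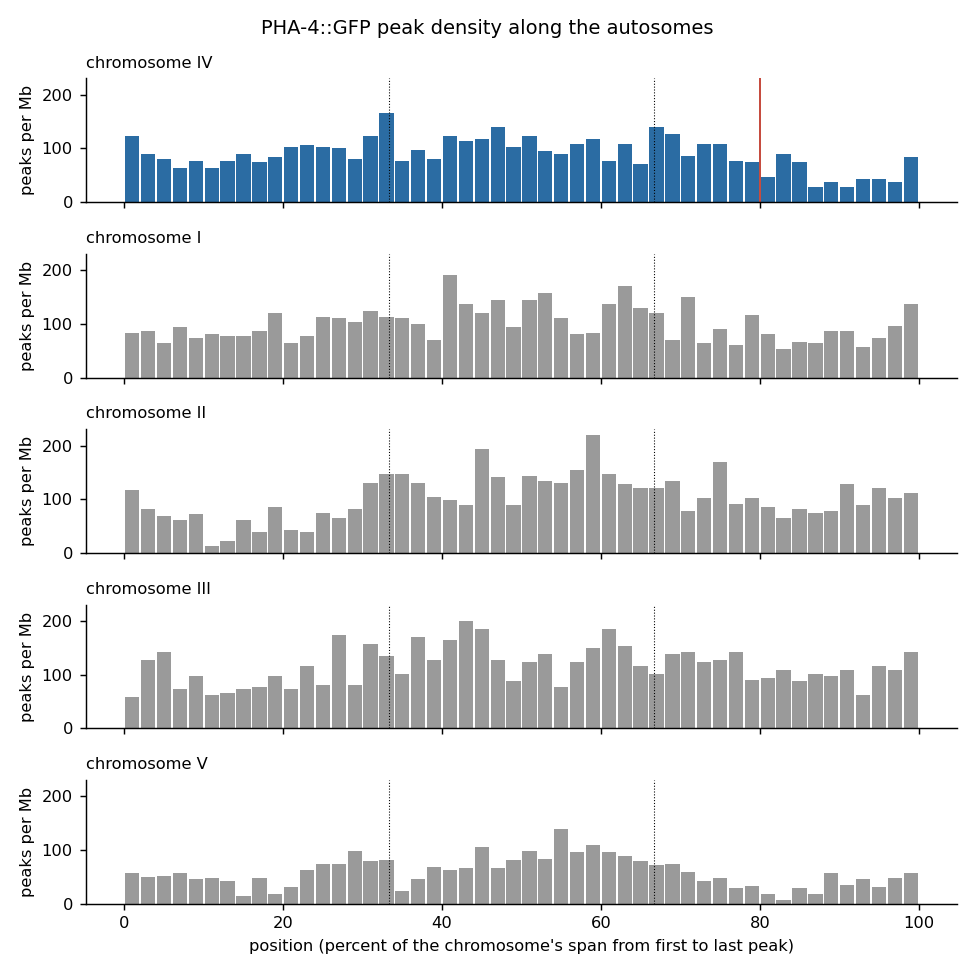
Peaks per Mb in 50 equal bins along each autosome, by position as a percent of the span from the first to the last peak. Dotted lines bound the centre, and the red line on chromosome IV marks position 14000000, at 80.0% of the span, right of which most of the bars are lower than those to its left.

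**Figure D2:**
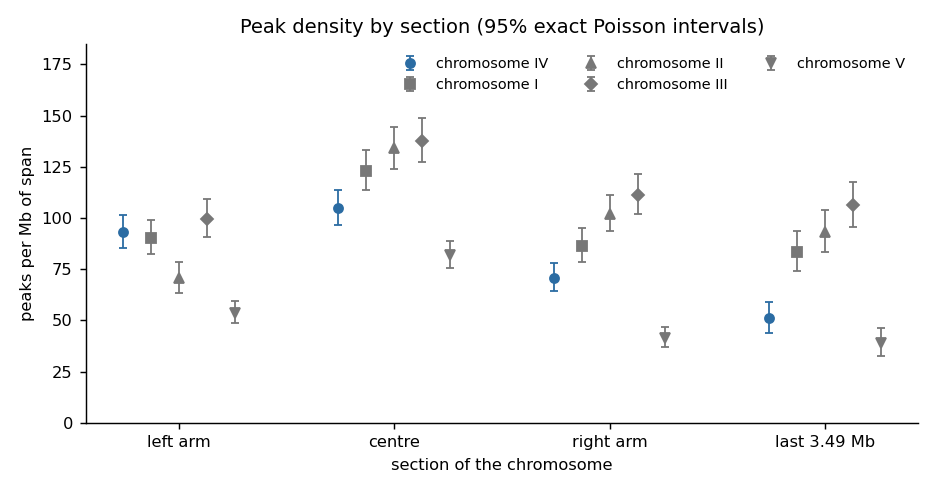
Peaks per Mb (points) in the left arm, centre and right arm of each autosome and in the last 3.49 Mb of its span, with 95% exact Poisson intervals (bars) that cover counting error alone. Chromosome IV (blue) stands at 93.1, 105, 70.9 and 51.0 peaks per Mb.

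In windows of 1 Mb counted from position 1, the number of peaks on IV ranged from 31 to 130. The densest were the window from 5000001 to 6000000 with 130 peaks (95% Poisson interval 109 to 154) and the one from 8000001 to 9000000 with 129 (108 to 153). The next, with 111 peaks (91.3 to 134), started at 7000001 and was tied with the window that starts at 11000001. The 3 sparsest full windows were consecutive. They held 68 peaks from 14000001 (52.8 to 86.2), 31 from 15000001 (21.1 to 44.0) and 42 from 16000001 (30.3 to 56.8). All other full windows held 72 or more, and the last, incomplete one reached 75.4 peaks per Mb.

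The densest window was not the best scoring. Of its 130 peaks, 45 or 34.6% were among the better-scoring 50% of the whole list (the 4582 peaks with the smallest q-values, or 50% of all peaks), although 2 of the 3 best peaks of chromosome IV lay in it. That share was the lowest of the 18 windows. The highest was 66.7%, 28 of 42 peaks, in the sparse window that starts at 16000001. Less extreme shares were found in the sparsest window, from 15000001 (16 of 31, 51.6%), and in the second densest, from 8000001 (60 of 129, 46.5%). On the scale of 100 kb, the densest window on IV ran from 4000001 to 4100000 with 22 peaks. Windows starting at 5500001 and 7000001 followed with 21 each, tied with 1 that starts at 13000001. Of these, the window at 4000001 had 10 of 22 peaks among the better-scoring 50%. The window at 5500001 had 5 of 21, that at 7000001 had 12 of 21 and that at 13000001 had 8 of 21.

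From 14000000 to the last peak, chromosome IV was sparse. This stretch of 3.49 Mb held 178 peaks or 51.0 per Mb (43.8 to 59.1), beside 1385 peaks or 99.3 per Mb (94.1 to 105) in the rest of the chromosome. The ratio was 0.514 (0.437 to 0.601). The boundary was set with the peak positions known, so the contrast is a description. It falls between a peak from 13980137 to 13980509 (q = 6.85e-15) and a peak from 14013751 to 14013939 (q = 0.000557). Over the last 3.49 Mb of the other autosomes, the density relative to the rest of the chromosome was 0.617 on V, 0.797 on I, 0.888 on III and 0.890 on II. The first 3.49 Mb of IV had 81.9 peaks per Mb, so that the low density was at 1 end.

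Stretches of this length with so few peaks occurred elsewhere too. When a window of 3.49 Mb was moved along each autosome in steps of 100 kb, 68 of 176 positions on V held fewer peaks than the right part of IV. On I, II and III none of 116, 119 and 104 positions did. The lowest on II, which starts at 400153, came close with 179 peaks or 51.3 per Mb. The lowest were 73.0 per Mb on I and 88.5 per Mb on III. On IV itself the sparsest position started at 13551119, with 167 peaks or 47.8 per Mb.

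The right part of IV was made of long empty stretches with groups of peaks between them. Of the 5 longest stretches without a peak on the chromosome, 4 lay there. The longest ran over 234 kb from 15697086 to 15931214. The next ran over 201 kb from 16181236 to 16381990, over 162 kb from 15113192 to 15275663 and over 153 kb from 16502930 to 16656186. Among the stretches of all autosomes, the first 3 of these were the third, the seventh and the tenth longest. The longest one on IV outside the right part came just before it, over 146 kb from 13549661 to 13695620. The fifth longest within it ran over 122 kb from 16047796 to 16169566.

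Together these 5 stretches of the right part made up 872 kb or 25% of it. Stretches over 50 kb numbered 18 there and 38 in the rest of IV. They took up 53.9% of the right part and 19.1% of the rest. On the whole list 3.06% of all stretches between neighbouring peaks were over 50 kb, and on IV they numbered 56 of 1562. The last 3.49 Mb of V had 63.1% of its length in such stretches, while I, II and III had 24.4%, 10.9% and 12.8%.

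Of the 35 windows of 100 kb in the right part, 16 held 3 peaks or fewer and 3 of these held 0. In the rest of IV, 8 of 140 windows held 3 or fewer and none was empty. At the other end, 5 of the 35 windows held 10 peaks or more, a limit chosen after the values were seen. They started at 14600001 with 18 peaks, 14800001 with 10, 16400001 with 17, 17200001 with 12 and 17400001 with 11. They contained 68 of the 178 peaks, or 38.2%. Outside them the density was 36.7 peaks per Mb. The longest run of closely spaced peaks on the whole chromosome, with less than 5 kb between each midpoint and the next, also lay in the right part. It held 16 peaks from 14600568 to 14624451, and the best of them had q = 7.43e-69.

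**Figure D3:**
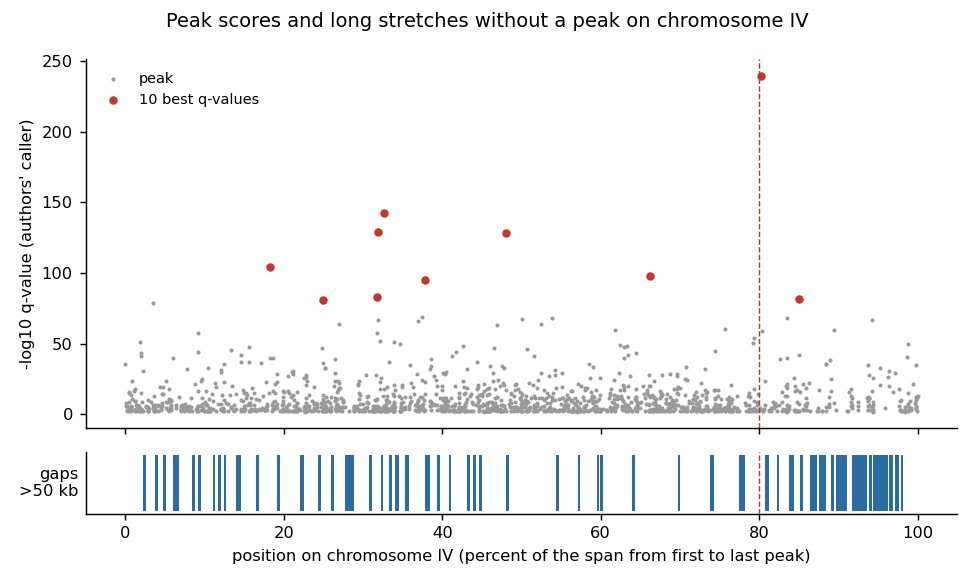
Upper panel, −log10 of the authors' q-value of each of the 1563 peaks on chromosome IV by position as a percent of the span, with the 10 best in red. Lower panel, the 56 stretches over 50 kb without a peak (blue), 18 of them right of position 14000000 (dashed line), beside which stands the best-scoring peak.

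The sparse right part held the best-scoring peak of the entire list. This peak ran over 2502 bp from 14032471 to 14034972 (q = 1.38e-240). Its neighbours lay 7394 bases to the left (q = 2.53e-05) and 35059 bases to the right (q = 8.10e-60), and only 4 other peaks had midpoints within 50 kb. The next 4 of the right part were peaks of 1112 bp at 14874648 to 14875759 (q = 4.65e-82), 2495 bp at 14610795 to 14613289 (q = 7.43e-69), 1724 bp at 16491153 to 16492876 (q = 2.93e-67) and 717 bp at 15646286 to 15647002 (q = 2.49e-60). The last of these closed a stretch of 72025 bases without a peak. The peak at 14610795 lay in the run of 16.

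Second on chromosome IV, and 16th in the list, was a peak of 1779 bp in the left arm from 5752878 to 5754656 (q = 4.26e-143). The third, at 5604188 to 5605483 (q = 9.84e-130), and the eighth, at 5600134 to 5600727 (q = 1.33e-83), lay in a single run of 13 peaks over 26.8 kb. The fourth ran from 8431256 to 8433218 in the centre (q = 2.25e-129), with 65555 bases without a peak on its right. The fifth, at 3231589 to 3234426 (q = 5.90e-105), was the widest peak of the chromosome with 2838 bp. The sixth, at 11592837 to 11594699 (q = 1.96e-98), and the seventh, at 6645627 to 6646607 (q = 5.68e-96), were in the centre. The ninth is the peak at 14874648 named above. The tenth was at 4405781 to 4407586 (q = 6.63e-82) in the left arm. Of the 10, 5 lay in the left arm, 3 in the centre and 2 in the right arm, and their widths ranged from 594 to 2838 bp.

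These leading peaks stood in unlike surroundings. The number of other peaks with midpoints within 50 kb ranged from 3, for the fourth and the fifth, to 19, for the tenth. For 5 of the 10 the nearest peak was less than 1 kb away, and for the first it was 7394 bases away. Some stood beside peaks with q-values near the largest in the list, 0.00997. The neighbours with the largest values were those of the sixth (q = 0.00606), the tenth (q = 0.00466) and the fourth (q = 0.00461).

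The share of best-scoring peaks on chromosome IV was not detectably different from that of the list. Of its peaks, 137 or 8.77% (7.41 to 10.3, exact binomial) were in the best-scoring 10% of the list, a rule that takes 9.99% of all peaks. The interval includes that background. Per Mb there were 7.86 such peaks on IV (6.60 to 9.29), beside 11.02 on I, 10.7 on II, 13.02 on III and 4.12 on V. Among the better-scoring 50% were 758 or 48.5% of the peaks on IV (46.0 to 51.0), beside the background of 50%. The median −log10 q on IV was 5.73 (5.34 to 6.12), which was lower than on I (6.03), II (6.15) and III (6.57) and higher than on V (5.55). Its interval overlapped those of I, II and V and lay just below that of III (6.19 to 7.08).

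The best-scoring peaks were not much denser in the centre of IV than in its left arm. The left arm held 50 of them or 8.60 per Mb (6.38 to 11.3), the centre 52 or 8.95 per Mb (6.68 to 11.7) and the right arm 35 or 6.02 per Mb (4.19 to 8.37). These 3 intervals overlapped. Of the peaks in each section, the best-scoring ones made up 9.24% in the left arm, 8.52% in the centre and 8.50% in the right arm. All of these shares were near the 9.99% of the whole list. The share of the right arm pooled unlike stretches. Its part from 14000000 had 24 of 178 peaks (13.5%), while the windows of 1 Mb from 12000001 and 13000001 had 6 of 103 and 4 of 89. On I, II, III and V the centre held 15.6, 14.9, 15.1 and 6.75 best-scoring peaks per Mb. These point values lay above both arms of the same chromosome in each case, as on IV. The centre's interval overlapped that of the right arm on I (6.92 to 12.5) and II (9.17 to 15.4). On III it overlapped those of both arms (9.04 to 15.6 each), and on V it lay above both. The intervals of the centres of I (12.4 to 19.5) and II (11.8 to 18.7) lay above that of IV, while that of III (11.7 to 19.1) overlapped it slightly. The left arm of IV had the lowest median −log10 q of all left arms, 5.09 (4.71 to 5.71), where the others had 5.31 to 7.05.

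In the right part the density ratio was nearer to 1 among the best-scoring peaks. It held 24 of the 137, or 6.87 per Mb (4.40 to 10.2), beside 8.10 per Mb (6.68 to 9.74) in the rest of IV. The ratio was 0.849 (0.522 to 1.33), an interval that includes 1 and overlaps that of the 0.514 found for all peaks, and the difference between these ratios was not tested. Of all peaks, 13.5% of those in the right part were in the best-scoring 10% (8.83 to 19.4), beside 8.16% in the rest (6.77 to 9.73). These intervals overlapped. The 9.99% of the whole list lay within that of the right part and just above that of the rest. Among the better-scoring 50% the density ratio was 0.552 (0.439 to 0.687).

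Peaks on IV were of ordinary width, with a median of 308 bp (300 to 321) and quartiles at 214 and 433 bp. The median was 309 bp on I, 294 bp on II, 287.5 bp on III and 339 bp on V. Width differed along the chromosome. The median was 297 bp in the left arm (281 to 313), 306.5 bp in the centre (293 to 320) and 338.5 bp in the right arm (315 to 364). In the right part it was 375 bp (335 to 403), beside 303 bp in the rest of IV (295 to 312). The last 3.49 Mb of I, II, III and V had medians of 309, 288.5, 289 and 278.5 bp, all lower. Elsewhere on V widths were closer to that of the right part. Its left arm, centre and right arm had 337 bp (318 to 353), 355 bp (335 to 377) and 309 bp (290 to 339). Each of these intervals overlapped that of the right part of IV.

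Peaks over 1000 bp made up 3.08% of the whole list and numbered 44 on IV (2.82%). They numbered 11 of 541 in the left arm (2.03%, 1.02 to 3.61), 13 of 610 in the centre (2.13%, 1.14 to 3.62) and 20 of 412 in the right arm (4.85%, 2.99 to 7.40). In the right part they were 10 of 178 (5.62%, 2.73 to 10.1), beside 34 of 1385 in the rest (2.45%, 1.71 to 3.41). Left arm and centre were nearly equal, and the intervals of the right arm and the right part overlapped those they are set beside. Peaks narrower than 200 bp, 19.2% of the whole list, made up 22.6% in the left arm, 20.8% in the centre and 16.0% in the right arm. On IV 16 peaks were narrower than 10 bp. Across the 1563 peaks width went with −log10 q (Spearman's rho = 0.77), a description over peaks that share their libraries and chromosome.

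**Figure D4:**
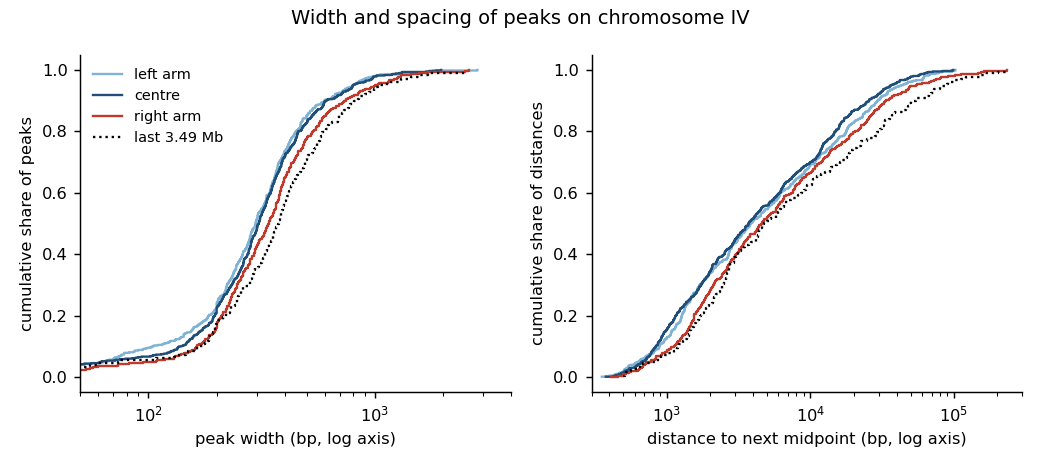
Cumulative shares of peak widths (left) and of distances from a peak's midpoint to the next (right) on chromosome IV, both on log axes, for the left arm, centre, right arm and the last 3.49 Mb. The curve of the last 3.49 Mb lies furthest right over most of both plots, with a median width of 375 bp and a median distance of 4761 bp.

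Neighbouring peaks on IV were both close together and far apart. The median distance between midpoints was 3989 bp (3569 to 4508), the shortest of the 5 autosomes, although its interval overlapped those of III (4070 bp, 3633 to 4553) and II (4206 bp, 3778 to 4564). The median was 5248 bp on I and 6718 bp on V. The mean distance on IV, 11165 bp, was longer than on I (10012 bp), II (9783 bp) and III (8607 bp). This order changed with the score. Among the better-scoring 50% the median on IV was 11581 bp, and those on III and II were shorter, at 8973 and 9366 bp.

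Distances under 5 kb made up 54.4% on IV (51.8 to 56.8), beside 51.4% in the whole list. Those under 1 kb made up 12.7%, beside 10.8% in the whole list. By section, distances under 1 kb were 12.8% in the left arm, 15.4% in the centre and 8.52% in the right arm. They were 7.34% in the right part (3.97 to 12.2) and 13.4% in the rest of IV (11.6 to 15.3). The median distance was 3849 bp in the left arm (3223 to 4801), 3710 bp in the centre (3124 to 4420) and 4603 bp in the right arm (3663 to 5793). In the right part it was 4761 bp (3459 to 7375), beside 3811 bp in the rest (3478 to 4361). The lower and upper quartiles were 2128.5 and 21010 bp in the right part, and 1486 and 12674 bp in the rest. Both quartiles were thus longer in the right part, while the intervals of the medians overlapped.

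Runs of peaks, with each midpoint less than 5 kb from the next, were counted in the same way on each autosome. On IV 68 runs of 5 peaks or more held 445 peaks, or 28.5% of its peaks. The share was 32.9% on II, 28.6% on III, 19.3% on I and 17.7% on V. In the right part 7 such runs held 59 of 178 peaks (33.1%), and in the rest 61 runs held 386 of 1385 (27.9%). Peaks with no neighbour under 5 kb made up 32.6% in the right part and 22.5% in the rest. After the run of 16, the longest runs on IV held 13 peaks each. They lay from 4014543 to 4033882 (best q = 1.28e-28), from 5588161 to 5614962 (best q = 9.84e-130) and from 7084789 to 7103653 (best q = 4.81e-31).

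Median scores of peaks in crowded and sparse windows of IV had overlapping intervals, and no test between the windows was made. The 375 peaks in windows of 100 kb with 15 peaks or more had a median −log10 q of 5.37 (4.71 to 6.14), and 45.9% were among the better-scoring 50%. The 658 peaks in windows with 10 to 14 peaks had 5.69 (5.01 to 6.14) and 47.9%. The 482 peaks in windows with 4 to 9 had 6.12 (5.34 to 7.03) and 51.04%. The 48 peaks in windows with 1 to 3 had 6.44 (3.15 to 15.6) and 52.1%. The medians stood in the reverse order of crowding, but all of these intervals overlapped. The share of peaks in the best-scoring 10% did not follow that order throughout. From the most to the least crowded windows it was 9.07% (34 peaks), 6.69% (44), 10.8% (52) and 14.6% (7). In the whole list it was 9.99%.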

How the data were processed

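ChIP-seq of PHA-4::GFP in late embryos is represented by 1 peak list. Peaks were called with PeakSeq on the WormBase WS180 build, per the file headers. The deposited q-values (p-values corrected by the authors' caller) served to rank and describe peaks. For the aligner, its version and the pooling of libraries, the entry is: not given in the sources used here. Depth is unknown.

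The distance between the outermost ends of the peaks on a chromosome stood in for its length. Peaks were placed by midpoint, and gaps run from the end of a peak to the start of the next. Intervals are at the 95% level. They are exact Poisson for densities, exact binomial (Clopper-Pearson) for shares and density ratios, and binomial order statistics for medians. No resampling or test was run. Python 3.11.15, numpy 2.4.6, pandas 2.3.3 and scipy 1.17.1 were used, and the counting was tested on simulated lists.

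Named features were the 10 best peaks and the 5 longest gaps of IV, the 5 best and 5 longest of the right part, the 3 densest and sparsest 1 Mb windows, the 3 densest 100 kb windows and the longest run. Further runs, windows and boundary peaks were named after their values were seen. Members and rules were chosen with earlier results of these data known.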

Additional observations from a re-analysis of the deposited data

How the results depend on the processing

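Of 46 recomputed values, 26 stayed within the counting interval of the reported value, or within 1.5 times for the number of peaks, and 20 did not. The point values of 3 ratios stayed below 1 in each setting: IV against the other autosomes, right against left arm, and right part against the rest. The first had an interval that included 1 as reported. That interval excluded 1 at a q-value of at most 0.001 (0.934, 0.875 to 0.995) and without V. The interval of right against left arm came to include 1 in the better-scoring 50% (0.845, 0.697 to 1.02) and the best-scoring 10% (0.700, 0.441 to 1.10), and that of the right part in the best-scoring 10% (0.522 to 1.33). With the better-scoring 50% alone, IV had 758 peaks, 41.8% in the centre, a median width of 417 bp, a median spacing of 11581 bp and 32.9% of spacings under 5 kb. In the best-scoring 10% these were 137 peaks, a width of 611 bp, a spacing of 84401 bp and 8.09%, with ratios of 0.859 against the other autosomes and 0.849 for the right part. At a q-value of at most 0.001 the width was 356.5 bp, the spacing 5909 bp and 46.7% of spacings were under 5 kb. Without the widest 5% the spacing was 4533 bp and 51.8%. Without peaks narrower than 200 bp the width was 353 bp. A shorter list has fewer peaks and longer spacings by construction. Likewise by construction, a wider centre holds more peaks, and a list without its narrowest peaks has a larger median width. For the remaining changes the cause was not tested. Without V the ratio against the other autosomes was 0.847. With the centre as the middle 50% of the span it held 60.6%, and the right arm had 0.651 times the peaks of the left. Starting the right part at 13000000 or 15000000 gave 0.594 and 0.454.

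No paired analysis was possible because 1 list covers both replicates, and leaving out a replicate was not possible for the same reason. Without tag counts, no depth limit can be given. In the stretches without a peak no binding was called, which does not show that binding was absent.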
